A study of Mus musculus with 20 samples.

Results

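The 10 genes described here encode proteins that process and cross-link collagen after it leaves the cell. They comprise 5 lysyl oxidases (Lox, Loxl1, Loxl2, Loxl3 and Loxl4), the procollagen C-proteinase Bmp1 with its enhancer Pcolce, and 3 procollagen N-proteinases (Adamts2, Adamts3 and Adamts14). They were picked by gene name from the 24885 genes of a table of read counts, with earlier results of these data known. Their counts are thus set beside those of all genes as a description. Each name matched 1 gene, and all 10 were among the 18918 genes that passed the filter on low counts. In WT tendon, 8 of the 10 rose within 7 days of a growth stimulus and Loxl4 fell, where 32.3% of all tested genes were higher and 31.8% lower. In KO tendon at day 7, Lox was lower than in WT, while Loxl2, Bmp1, Adamts2 and Adamts14 were higher, where 14.8% of all tested genes passed. Of these calls, that of Bmp1 alone passed under every alternative tried. At day 14 Loxl2 alone passed, where 1.78% of all tested genes did, and its call was lost under some alternatives.

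Fibrillar procollagens are secreted with a propeptide at each end. BMP1, a metalloproteinase that works best with PCOLCE bound to the substrate, removes the C-propeptide, and ADAMTS2, ADAMTS3 and ADAMTS14 remove the N-propeptide, after which the molecules assemble into fibrils. Lysyl oxidases are secreted copper enzymes that turn lysine and hydroxylysine side chains of collagen and elastin into aldehydes, and these react to form the covalent cross-links on which the strength of tendon depends. BMP1 also cleaves the precursor of LOX, so that the steps are linked.

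RNA was sequenced from plantaris tendons of mice (a tendon of the calf), with 20 libraries in 5 groups of 4. KO day 7 and KO day 14 mice were ScxCreERT2+/+ IGF1Rflox/flox and had tamoxifen and a growth stimulus for 7 or 14 days. WT day 7 and WT day 14 mice were ScxCreERT2-/- IGF1Rflox/flox and had the same tamoxifen and stimulus. WT day 0 mice were ScxCreERT2-/- IGF1Rflox/flox, without tamoxifen and without the stimulus. All 5 groups thus carried the floxed receptor gene. CreERT2 is a recombinase that needs tamoxifen, here driven from Scx, which encodes a transcription factor that tendon fibroblasts use, so deletion in cells that do not use Scx is not part of the model. Against WT day 0, tamoxifen and the stimulus differ together, and for KO groups the genotype as well. A KO group without the stimulus was not analysed here. The labels give no age and do not state whether each library is its own animal. P-values then measure the spread between libraries alone, and that spread may be technical.

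Depth was 32.25 to 63.52 M counts per library. Igf1r, the targeted gene, averaged 51.3 ± 2.81 CPM in KO and 49.1 ± 2.17 CPM in WT at day 7, and 53.1 ± 5.0 CPM in KO and 45.3 ± 3.63 CPM in WT at day 14 (SD, n = 4; edgeR adjusted p = 0.646 and 0.162). Counts summed over the gene cannot show whether its floxed stretch was lost. Scx, which carries the recombinase, averaged 736 CPM in KO and 50.5 CPM in WT at day 7, and 1249 CPM in KO and 114 CPM in WT at day 14. Defining genes of tenocytes, Col1a1 and Col1a2 among them, were present, with 8 of 8 read in every group. So were the 13 skeletal muscle fibre genes, whose summed level was 5116 to 12630 CPM in KO day 7, 226.2 to 1775 CPM in WT day 7, 1590 to 26230 CPM in KO day 14, 2859 to 23270 CPM in WT day 14 and 26040 to 66480 CPM in WT day 0. In bulk RNA, fewer cells of a type and less RNA per cell cannot be told apart. The WT day 14 libraries had the widest spread of Col1a1, which lay between 18206 and 63887 CPM, against 45842 to 49754 CPM in KO day 14. Without WT day 14 replicate 4, the number of genes that passed the test between KO day 14 and WT day 14 was 1672 in place of 337.

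Promoter sequences were taken from RefSeq (GRCm38.p6) for Loxl4, Pcolce, Adamts2, Adamts3 and Adamts14. Those of Lox, Loxl1, Loxl2, Loxl3 and Bmp1 were not used here. The windows of Loxl4 and Adamts14 are shown because, of the 5, these genes moved furthest under the growth stimulus and in opposite directions. Each is the 250 bases before the RefSeq start, 5′ to 3′ on the gene's own strand, at chr19:42612807-42613056 (minus strand) for Loxl4 and chr10:61273420-61273669 (minus strand) for Adamts14. Capitals mark the GC box GGGCGG or its reverse complement CCGCCC.
Loxl4: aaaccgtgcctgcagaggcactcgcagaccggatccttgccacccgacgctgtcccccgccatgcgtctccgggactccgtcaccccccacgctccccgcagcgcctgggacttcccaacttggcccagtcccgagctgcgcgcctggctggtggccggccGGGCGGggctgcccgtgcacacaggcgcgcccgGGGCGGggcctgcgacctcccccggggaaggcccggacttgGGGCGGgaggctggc
Adamts14: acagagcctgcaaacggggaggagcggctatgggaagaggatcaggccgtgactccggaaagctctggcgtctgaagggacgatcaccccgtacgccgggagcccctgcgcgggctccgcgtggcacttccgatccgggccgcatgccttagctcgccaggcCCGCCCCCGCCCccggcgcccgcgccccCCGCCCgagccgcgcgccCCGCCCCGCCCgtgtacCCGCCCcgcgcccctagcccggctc

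The Loxl4 window had 3 GC boxes, whose first bases lay 89, 56 and 15 bases before the start, all on the gene's strand. The Adamts14 window had 6, all on the other strand, of which those 42 and 37 bases before the start overlap. Both windows were rich in G and C (76.0% for Loxl4 and 76.4% for Adamts14, against a median of 52.4% over all promoters). The GC box was in 33.0% of 32536 promoters of the same length. A TATA box (TATAAA), an AP-1 site (TGACTCA) and an E box (CACCTG) were searched on both strands too, are in 12.3%, 4.45% and 17.3% of all promoters, and were not in the letters of these 2 windows. These matches describe the letters and are not known to be sites.

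Levels of different genes were compared as RPKM, which is CPM divided by exon length in kilobases. The length was that of all annotated exons of a gene, merged where they overlap. It can exceed that of the main transcript, so the order of genes depends on this choice. By CPM, Bmp1 (467) was above Loxl1 (288) and Loxl2 (375) in WT day 7, and Lox (1663) was above Pcolce (1624) in KO day 14. Over all 20 libraries Lox averaged 399 RPKM and Pcolce 337 RPKM, and Loxl1, Loxl2, Adamts2 and Bmp1 followed with 88.5, 78.1, 63.8 and 60.5 RPKM. Loxl3 averaged 39.6 RPKM, Loxl4 7.06, Adamts14 5.41 and Adamts3 1.58 RPKM. Lox led in 4 of the 5 groups, and its range overlapped that of Pcolce in KO day 7, WT day 14 and WT day 0 but not in WT day 7. In KO day 14 Pcolce led with 425 ± 23.8 RPKM and Lox followed with 348 ± 41.3 RPKM, without overlap (SD, n = 4). In WT day 0, Bmp1, Loxl1, Loxl2 and Loxl3 overlapped each with the next in order, whereas Loxl1 and Loxl2 stood above Bmp1 in WT day 7 and KO day 7. Loxl4 ranked above Adamts14 without overlap in WT day 0, with 13.2 ± 0.848 against 2.14 ± 0.219 RPKM, and their ranges overlapped in all 4 later groups.

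**Figure D1:**
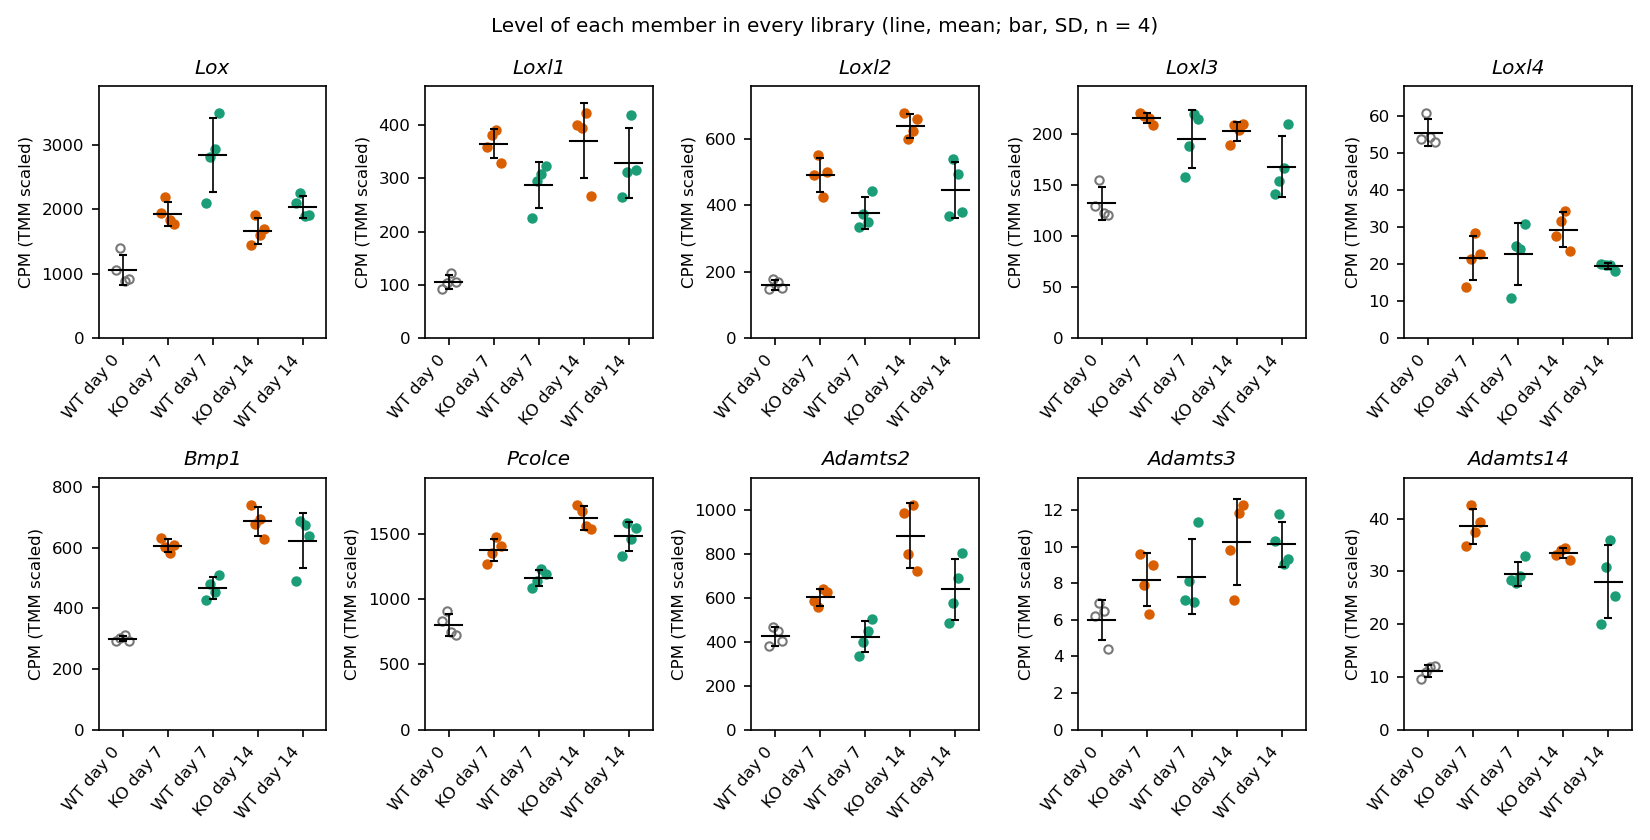
Level of each of the 10 genes in CPM after TMM scaling (linear axes from 0), 1 point per library, with the mean and SD of 4 libraries per group. Lox is highest in WT day 7 (2837 CPM on average), Loxl4 is highest in WT day 0 (55.6 CPM), and Loxl2 is highest in KO day 14 (639 CPM).

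Setting the day 7 and day 14 WT libraries against WT day 0 asks how these genes move while tendon grows. CPM, counts per M after TMM scaling of library sizes, is used from here on for 1 gene across libraries. Lox, the founding family member, had 1056, 1396, 884 and 909 CPM in the WT day 0 libraries, 2103, 2808, 2942 and 3494.5 CPM at day 7, and 2091.5, 2247, 1893 and 1904 CPM at day 14. Every library at day 7 and day 14 was above every library at day 0. Lox rose 2.67-fold by day 7 (log2 change 1.42 ± 0.16, SE; edgeR adjusted p = 1.84e-07) and stood 1.92-fold above day 0 at day 14 (log2 change 0.94 ± 0.15).

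Loxl1, known for its part in elastic fibres, had 226, 295, 309 and 323 CPM at day 7, against 91.3, 104, 122 and 106 CPM at day 0. Loxl2, which also cross-links collagen IV of basement membranes, had 336, 372, 349 and 444 CPM at day 7, against 147, 177, 169 and 149 CPM at day 0. Neither gene overlapped between the groups. Loxl1 rose 2.72-fold by day 7 and was 3.10-fold above day 0 at day 14, and Loxl2 rose 2.33-fold and was 2.77-fold above day 0 (edgeR adjusted p from 1.59e-08 to 1.22e-07). Their means were 329 and 445 CPM at day 14, against 288 and 375 CPM at day 7, differences that did not pass the test (adjusted p = 0.373 and 0.139).

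Loxl3 moved less, to 195 ± 28.5 CPM at day 7, against 132 ± 15.8 CPM at day 0 (SD, n = 4), a 1.48-fold rise. At day 14 it stood 1.27-fold above day 0 with overlapping groups (edgeR adjusted p = 0.0158), a call lost without WT day 0 replicate 4 or WT day 14 replicate 4 (adjusted p = 0.0526 and 0.0764) or with a muscle score as a covariate (adjusted p = 0.0801). Loxl3 shares 535 exon bases, 11.6% of its exon length, with Htra2 on the opposite strand, and the strand setting of the counts is not given, so its level is uncertain.

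Loxl4 was the member that fell. It had 53.9, 60.9, 54.4 and 53.1 CPM in the WT day 0 libraries, 10.9, 25.0, 24.0 and 30.9 CPM at day 7, and 20.1, 19.8, 19.9 and 18.2 CPM at day 14. All 8 later WT libraries lay below all 4 at day 0. Its log2 change was -1.29 ± 0.23 at day 7 and -1.51 ± 0.24 at day 14 (SE; edgeR adjusted p = 1e-04 and 3.33e-05). Loxl4 carries the same catalytic domain as the other family members and was the lowest of the 5 per length in every group.

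Of the C-proteinase pair, Bmp1 had 426, 478, 452 and 510 CPM at day 7, against 292, 302, 311 and 293 CPM at day 0. Pcolce had 1087, 1141, 1231 and 1191 CPM at day 7, against 829, 906, 750 and 725 CPM at day 0. Both were higher in every library at day 7. Bmp1 rose 1.56-fold by day 7 and stood 2.08-fold above day 0 at day 14, and Pcolce rose 1.45-fold and 1.85-fold (edgeR adjusted p from 3.31e-08 to 3.635e-05). Both went on rising in the second week: Bmp1 was 1.33-fold and Pcolce 1.27-fold higher at day 14 than at day 7 (adjusted p = 0.00262 and 0.00652). The Bmp1 groups of these days overlapped, since WT day 14 replicate 1 had 490 CPM, and those of Pcolce did not. Pcolce shares 112 exon bases, 2.93% of its exon length, with Fbxo24 on the same strand. Loxl2 shares 301 (5.57%) with Gm27177 on the opposite strand.

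The 3 N-proteinases parted. Adamts2, the enzyme whose loss causes dermatosparaxis, a skin fragility disease, had 338, 401, 450 and 503 CPM at day 7, against 379, 470, 449 and 402 CPM at day 0. The groups overlapped fully, and the log2 change was -0.01 with a 95% interval of -0.32 to 0.31 (edgeR adjusted p = 0.971). Adamts2 then rose to 640 ± 140 CPM at day 14, 1.51-fold above day 7 and 1.51-fold above day 0 (adjusted p = 0.00527 and 0.00254). Its groups overlapped between day 14 and day 7 and not between day 14 and day 0. Adamts14 had 28.3, 27.8, 29.1 and 32.9 CPM at day 7, against 9.57, 10.98, 11.8 and 12.1 CPM at day 0. Every day 7 library exceeded every day 0 library, the rise was 2.65-fold (log2 change 1.41 ± 0.13), and at day 14 it was 2.52-fold. Adamts3, which in mice also activates the lymphatic growth factor VEGF-C, was scarce, with 6.0001 ± 1.10 CPM at day 0, 8.37 ± 2.04 CPM at day 7 and 10.1 ± 1.25 CPM at day 14 (SD, n = 4). It rose 1.39-fold by day 7 (adjusted p = 0.0355), a call lost without WT day 0 replicate 1 or 4 or WT day 7 replicate 2 or 4 (adjusted p from 0.0538 to 0.184) and with limma-voom (0.059), and 1.69-fold by day 14.

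In all, 9 of the 10 genes passed the test between WT day 7 and WT day 0 (8 higher, 1 lower), where 64.1% of the 18918 tested genes passed (32.3% higher and 31.8% lower). Between WT day 14 and WT day 0, all 10 passed (9 higher, 1 lower), where 54.3% of tested genes passed (28% higher and 26.2% lower). The median log2 change of the 10 genes was 0.60 at day 7 and 0.91 at day 14, and that of all tested genes was 0.02 at both. Muscle fibre genes summed to 226.2 to 1775 CPM in WT day 7, against 26040 to 66480 CPM in WT day 0. Macrophage genes (8 of 8 read) summed to 3419 to 5898 CPM against 1577 to 1815, chondrocyte genes (6 of 6) to 212 to 335 against 30.95 to 38.5, and adipocyte genes (6 of 6) to 162 to 386 against 1211 to 2042 CPM. Their part in these differences was not tested, apart from a fit with a muscle score as a covariate. In that fit 5 of the 10 genes passed at day 7, and Loxl3, Bmp1, Pcolce and Adamts3 did not (adjusted p from 0.0595 to 0.535). Their log2 changes with the score were 0.48, 0.47, 0.40 and 0.33, against 0.56, 0.64, 0.53 and 0.48 without it, and their SEs were 0.177 to 0.369, against 0.0903 to 0.192.

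The second week in WT, day 14 against day 7, moved 4 of the 10 genes, where 30.4% of tested genes passed (16% higher and 14.3% lower). Bmp1, Pcolce and Adamts2 rose, as given above, and Lox fell by 0.48 ± 0.15 on the log2 scale (SE; edgeR adjusted p = 0.0227). The Lox groups overlapped, since WT day 7 replicate 1 had 2103 CPM, and the call was lost without any of 4 libraries (WT day 7 replicates 3 and 4, WT day 14 replicates 3 and 4; adjusted p from 0.0522 to 0.106). It was also lost with the muscle score (log2 change -0.34 ± 0.21; adjusted p = 0.307). Macrophage genes summed to 2725 to 3140 CPM in WT day 14 and 3419 to 5898 CPM in WT day 7, chondrocyte genes to 352 to 883 and 212 to 335 CPM, muscle fibre genes to 2859 to 23270 and 226.2 to 1775 CPM, and tenocyte genes to 57350 to 143700 and 45200 to 56380 CPM. The tenocyte sum was mostly Col1a1 and Col1a2 (34521 and 39375 of 90230 CPM on average in WT day 14). None of these 4 sums overlapped, and apart from the muscle score their part was not tested.

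**Figure D2:**
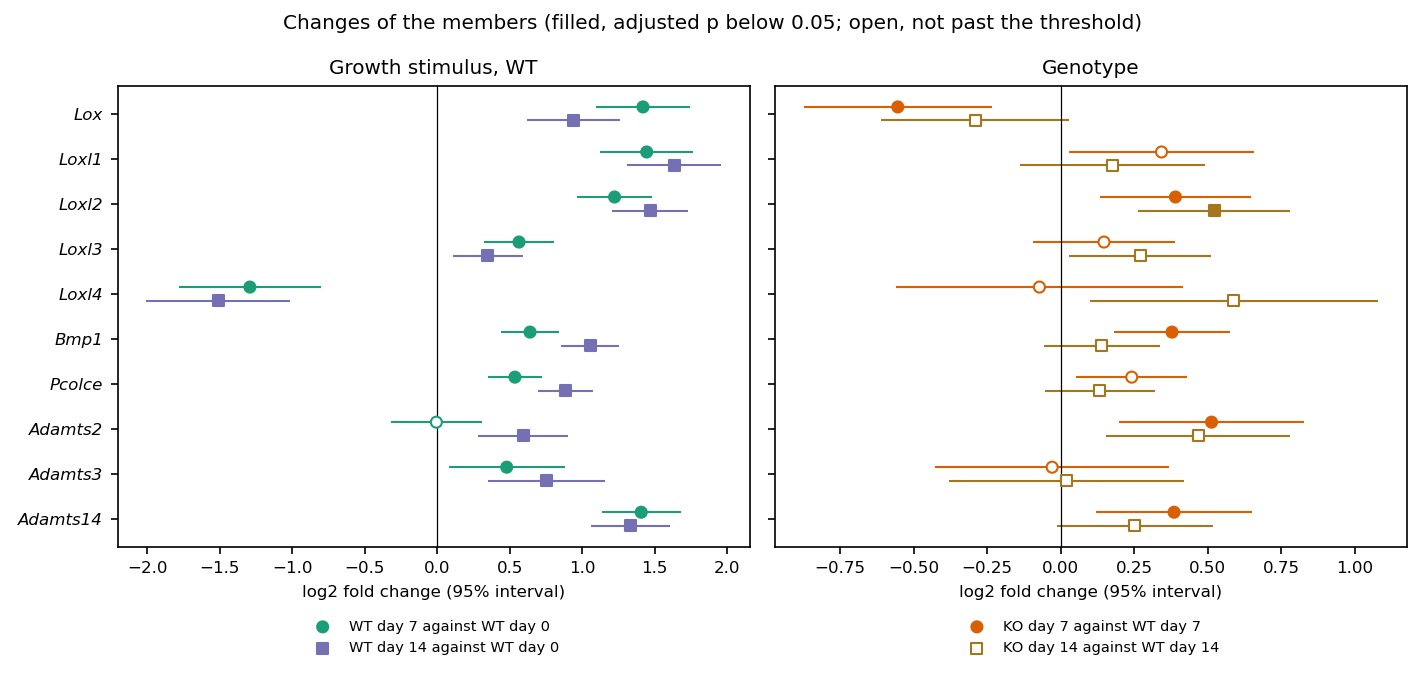
Log2 fold change of each of the 10 genes with its 95% interval from edgeR, for the WT libraries of day 7 and day 14 against those of day 0 (left) and for KO against WT at day 7 and day 14 (right, with a narrower scale). Loxl4 alone lies below 0 with a filled symbol on the left (-1.29 and -1.51), and Lox alone does so on the right (-0.55 at day 7).

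Genes of the fibrillar substrates rose as well. Of 9 fibrillar procollagen genes, 7 rose and 1 fell in WT day 7, and 8 rose in WT day 14, against WT day 0 (median log2 change 1.31 and 2.44). Of all tested genes, 32.3% were higher and 31.8% lower at day 7, and 28% higher and 26.2% lower at day 14. Col3a1, the type III chain of healing and growing tissue, rose by 2.56 ± 0.14 on the log2 scale at day 7, Col5a2 by 2.10, Col5a1 by 2.12, Col1a1 by 1.31 and Col1a2 by 0.56. The 1 that fell at day 7, named after its value was seen, was Col11a2, a chain of cartilage collagen (-1.87). At day 14 the rises were 2.91 for Col3a1, 2.44 for Col5a2, 2.45 for Col5a1, 2.13 for Col1a1 and 1.38 for Col1a2. From day 7 to day 14 in WT, where 16% of all tested genes were higher, 5 of the 9 rose, among them Col11a1 (1.24), Col1a2 (0.82) and Col2a1 (4.29). Col1a1 rose by 0.82 as well, and Col3a1 changed by 0.36 without passing (edgeR adjusted p = 0.0502).

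Other genes of propeptide removal and precursor activation split. Of 10 listed genes 9 were in the table and 7 were tested, of which 5 rose and 2 fell at both day 7 and day 14 against day 0. Of all tested genes, 64.1% passed at day 7 and 54.3% at day 14. Pcsk5, a proprotein convertase, rose by 3.18 at day 7 and 2.43 at day 14 on the log2 scale, and Tll1, a close relative of Bmp1, by 1.83 at day 14. Pcolce2, the second C-proteinase enhancer, fell (-3.07 at day 7 and -2.55 at day 14), opposite to Pcolce, and the convertase Pcsk6 fell by 2.16 at day 7. Mep1b was not matched, and Tll2 and Mep1a were below the filter. Between WT day 14 and WT day 7, where 30.4% of all tested genes passed, Pcsk6 (1.20) and Pcolce2 (0.52) rose and Pcsk5 fell by 0.76.

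Of 11 genes of lysyl oxidase substrates, scaffolds and copper supply, 9 rose and 2 fell at each day against WT day 0. Of all tested genes, 64.1% passed at day 7 and 54.3% at day 14. Postn, encoding periostin, rose by 6.10 and 6.05 on the log2 scale at day 7 and day 14, Slc31a1, the copper importer, by 1.44 and 1.14, and Efemp2, encoding a fibulin, by 1.69 and 1.44. The 2 that fell, named after their values were seen, were Tnxb, encoding tenascin-X (-2.95 and -2.32), and Fmod, the fibril proteoglycan fibromodulin (-1.94 and -0.49). Between WT day 14 and WT day 7, 4 rose and 2 fell, where 30.4% of all tested genes passed. These were led by Fmod (1.45), Atp7a, the copper pump that loads secreted copper enzymes (-0.76), and Fn1, encoding fibronectin (0.61).

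The hydroxylation of collagen lysines bears on the kind of cross-link that forms. PLOD2 with FKBP10 acts on telopeptide lysines and PLOD1 with P3H3 and P3H4 on helical ones. All 9 listed genes of lysine hydroxylation and collagen folding in the endoplasmic reticulum rose at day 7 and at day 14 against WT day 0, with medians of 1.29 and 1.47 on the log2 scale. Of all tested genes, 32.3% were higher at day 7 and 28% at day 14. Fkbp11, a prolyl isomerase of the endoplasmic reticulum, rose by 3.66 and 3.42, Serpinh1, the collagen chaperone, by 1.83 and 1.85, and Ppib, cyclophilin B, by 1.16 and 1.27. Between WT day 14 and WT day 7, where 16% of all tested genes were higher and 14.3% lower, 4 rose and none fell, led by P3h4 (0.68), P3h3 (0.49) and Plod1 (0.39).

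The comparison of KO day 7 with WT day 7 asks how levels during growth differ with ScxCreERT2, which targets Igf1r in Scx-expressing cells. Without a KO group that lacked the stimulus, a difference present before it cannot be told from a different response. The recombinase, the higher Scx counts and any loss of Igf1r differ together here and cannot be told apart. Lox had 1935, 2193, 1827 and 1776.5 CPM in KO, against 2103, 2808, 2942 and 3494.5 CPM in WT. All but 1 of the KO libraries lay below all WT libraries, with KO replicate 2 just above WT replicate 1. The log2 change was -0.55 ± 0.15, or 0.68-fold (SE; edgeR adjusted p = 0.0216).

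Loxl2 had 492, 550, 424 and 500.0 CPM in KO, against 336, 372, 349 and 444 CPM in WT. The groups overlapped through 1 library of each, and the change was 1.31-fold (log2 change 0.39 ± 0.12; edgeR adjusted p = 0.0389). Loxl1 averaged 365 ± 27.7 CPM in KO and 288 ± 43.2 CPM in WT without overlap, and did not pass (adjusted p = 0.13). Loxl3 and Loxl4 overlapped between genotypes, with means of 215 and 21.6 CPM in KO and 195 and 22.7 CPM in WT (adjusted p = 0.415 and 0.87).

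Bmp1 had 632, 603, 582 and 609 CPM in KO, against 426, 478, 452 and 510 CPM in WT. Every KO library was above every WT library, and the gene was 1.30-fold higher (log2 change 0.38 ± 0.09; edgeR adjusted p = 0.0131). Pcolce averaged 1374 ± 85.2 CPM in KO and 1163 ± 62.6 CPM in WT, also without overlap, and did not pass (adjusted p = 0.0753). With DESeq2 it passed (adjusted p = 0.0215).

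Adamts2 had 585, 560, 642 and 627 CPM in KO, against 338, 401, 450 and 503 CPM in WT. Adamts14 had 34.8, 42.7, 37.4 and 39.3 CPM in KO, against 28.3, 27.8, 29.1 and 32.9 CPM in WT. For both, all KO libraries were above all WT libraries. Adamts2 was 1.43-fold and Adamts14 1.31-fold higher (log2 change 0.51 ± 0.15 and 0.39 ± 0.13; edgeR adjusted p = 0.0276 and 0.047). Adamts3 averaged 8.20 CPM in KO and 8.37 CPM in WT, with a 95% interval of the log2 change from -0.43 to 0.37.

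In all, 5 of the 10 genes passed between KO day 7 and WT day 7 (4 higher, 1 lower), where 14.8% of tested genes passed (9.39% higher and 5.42% lower). The median log2 change of the 10 was 0.29, and that of all tested genes -0.01. These calls rest on few libraries: leaving out any 1 library left 1 to 4 of the 10. Bmp1 passed under every alternative tried. Lox was lost without WT day 7 replicate 2, 3 or 4 or KO day 7 replicate 3 or 4 (adjusted p from 0.0532 to 0.084), Loxl2 without WT day 7 replicate 1, 2 or 3 or KO day 7 replicate 1, 2 or 4, Adamts2 without WT day 7 replicate 1 or 2 or KO day 7 replicate 3 or 4, and Adamts14 without WT day 7 replicate 1, 2 or 3 or KO day 7 replicate 2, 3 or 4. Muscle fibre genes summed to 5116 to 12630 CPM in KO day 7 and 226.2 to 1775 CPM in WT day 7, and chondrocyte genes to 551 to 1127 and 212 to 335 CPM. Tenocyte genes summed to 84050 to 104700 and 45200 to 56380 CPM, mostly Col1a1 (39903 and 19524 CPM on average) and Col1a2 (39699 and 22354.5 CPM). None of these sums overlapped between the genotypes. With the muscle score as a covariate, Bmp1 alone passed (adjusted p of the other 4 from 0.0656 to 0.245). The log2 changes with the score were larger for Loxl2, Adamts2 and Adamts14 (0.53, 0.65 and 0.53, with SEs of 0.162, 0.201 and 0.167) and smaller for Lox (-0.42 ± 0.21). The part of the other cell types was not tested.

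Of the 9 fibrillar procollagen genes, 7 were higher and none lower in KO day 7. For this and the other lists, the shares of all tested genes were 9.39% higher and 5.42% lower. Col2a1, of cartilage, was higher by 5.99 ± 1.03 on the log2 scale, Col5a1 by 0.96, Col1a2 by 0.83 and Col1a1 by 1.03, and Col3a1 differed by 0.37 without passing (edgeR adjusted p = 0.0671). Col1a1 averaged 39903 ± 4362 CPM in KO and 19524 ± 2579 CPM in WT (SD, n = 4). Of the 7 tested processing genes, Furin, the convertase that activates many secreted enzymes, was higher by 0.60 and Pcolce2 by 0.64, and none was lower. Of the 11 substrate, scaffold and copper genes, 3 were higher, Fmod (1.01), Fn1 (0.64) and Tnxb (1.25), and 2 were lower, the copper transporters Atp7a (-0.72) and Slc31a1 (-0.28). Of the 9 hydroxylation and folding genes, P3h4 was higher by 0.46 and none was lower.

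At day 14, 1 of the 10 genes passed between KO and WT, where 1.78% of tested genes passed (1.06% higher and 0.719% lower). Loxl2 had 677, 598, 622 and 658 CPM in KO day 14, against 368, 539, 494 and 378 CPM in WT day 14. Every KO library was above every WT library, and Loxl2 was 1.44-fold higher (log2 change 0.52 ± 0.12, SE; edgeR adjusted p = 0.0354). The call was lost without WT day 14 replicate 1 or any 1 KO day 14 library (adjusted p from 0.0562 to 0.124) and in a fit to the compared groups alone (adjusted p = 0.182).

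Loxl4 had 27.6, 31.8, 34.4 and 23.6 CPM in KO day 14, against 20.1, 19.8, 19.9 and 18.2 CPM in WT day 14. The groups did not overlap, yet the difference did not pass (log2 change 0.59 ± 0.23, SE; edgeR adjusted p = 0.21). Lox averaged 1663 ± 197 CPM in KO and 2034 ± 169 CPM in WT, with 1 KO library inside the WT range (log2 change -0.29, 95% interval -0.61 to 0.03; adjusted p = 0.354). Adamts2 averaged 885 ± 147 CPM in KO and 640 ± 140 CPM in WT (log2 change 0.47, 95% interval 0.15 to 0.78; adjusted p = 0.12). Without WT day 14 replicate 4, Adamts2 and Loxl3 passed beside Loxl2 (adjusted p = 0.0199 and 0.0282).

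Loxl1, Loxl3, Bmp1, Pcolce, Adamts3 and Adamts14 differed by 0.02 to 0.27 on the log2 scale at day 14, with overlapping groups. The median log2 change of the 10 was 0.21, and that of all tested genes -0.01. Muscle fibre genes overlapped between KO day 14 (1590 to 26230 CPM) and WT day 14 (2859 to 23270 CPM). Of the pathway genes, Col5a1 (0.73 ± 0.18) and Pcolce2 (0.73 ± 0.18) were higher in KO day 14 (edgeR adjusted p = 0.0434 and 0.0494). No other gene of the 4 lists passed, where 1.78% of all tested genes did. Among those that missed it, Col1a2 had a log2 change of 0.54, Col3a1 of 0.31, Col1a1 of 0.46, Tnxb of 1.04, Fmod of 0.52, Fkbp11 of -0.40 and Ppib of -0.22.

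Averaged over both days, 6 of the 10 genes passed between KO and WT, where 19% of tested genes passed (10.5% higher and 8.51% lower). Loxl2 (log2 change 0.46 ± 0.09), Adamts2 (0.49 ± 0.11), Adamts14 (0.32 ± 0.09), Bmp1 (0.26 ± 0.07) and Pcolce (0.19 ± 0.06) were higher, and Lox was lower (-0.42 ± 0.11; SE; edgeR adjusted p = 0.0122). Pcolce was closest to the threshold (adjusted p = 0.0457) and was lost without any 1 of 11 of the 16 libraries. The interaction of genotype and day, which asks whether the KO difference at day 14 differs from that at day 7, passed for 0 of the 18918 tested genes with edgeR (2039 at an unadjusted p below 0.05). DESeq2 gave 190 genes and limma-voom 0. None of the 10 genes reached an unadjusted p below 0.05. The nearest was Loxl4, with an interaction of 0.66 and a 95% interval of -0.03 to 1.35, so a KO effect past the threshold at day 7 alone is not shown to differ from that at day 14.

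With KO set against WT day 0, genotype, tamoxifen and the stimulus differ together. At day 7, 9 of the 10 genes passed (8 higher, 1 lower), where 57.7% of tested genes passed (29.4% higher and 28.3% lower). At day 14 all 10 passed (9 higher, 1 lower; of all tested genes 25.4% were higher and 25% lower, 50.3% in sum). Loxl4 was the lower gene at both. Loxl2 reached 3.06-fold at day 7 and 3.97-fold at day 14, Loxl1 3.45-fold and 3.50-fold, and Adamts14 3.46-fold and 3.003-fold. Lox reached 1.82-fold and 1.57-fold. Adamts2 was 1.42-fold above WT day 0 in KO day 7 (edgeR adjusted p = 0.00704), and 0.995-fold in WT day 7, both against the same WT day 0 libraries. Its KO day 7 call was lost with the muscle score as a covariate in edgeR (log2 change 0.40 ± 0.19, adjusted p = 0.0913). Between KO day 14 and KO day 7, Loxl2 (0.38 ± 0.12) and Adamts2 (0.55 ± 0.15) were higher, 2 of 10 where 15.7% of tested genes passed (7.09% higher and 8.57% lower), and leaving out any 1 library left 0 or 1. Of the 9 procollagen genes, Col11a1 (0.74) was higher.

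In the makeup of the lysyl oxidase transcripts, as shares of their summed counts per length, the share of Lox separated the genotypes. Lox held 61.4 ± 1.24% in KO day 7 and 74.2 ± 1.36% in WT day 7, and 55.2 ± 3.93% in KO day 14 and 65.7 ± 4.19% in WT day 14, against 67.8 ± 4.02% in WT day 0 (SD, n = 4). By library, Lox held 61.75, 63.0, 60.4 and 60.4% in KO day 7, against 72.5, 74.1, 74.4 and 75.8% in WT day 7. At day 14 it held 50.7, 58.6, 53.0 and 58.3% in KO, against 70.4, 66.9, 60.4 and 64.9% in WT. The groups did not overlap at either day.

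At day 7 Loxl1 held 16.9 ± 1.3% in KO and 11.01 ± 0.578% in WT, and Loxl2 13.8 ± 1.09% in KO and 8.80 ± 1.02% in WT. At day 14 Loxl1 held 17.9 ± 3.33% in KO and 15.4 ± 2.94% in WT, with overlapping groups. Loxl2 then held 18.9 ± 2.11% in KO and 12.6 ± 1.68% in WT, without overlap. Which of the pair differed more at day 7 depends on the scale, since by counts Loxl2 held 16.2% in KO and 10.2% in WT, and Loxl1 12.1% in KO and 7.795% in WT. Loxl4 held 0.784% in KO day 7, 0.656% in WT day 7, 1.10% in KO day 14, 0.714% in WT day 14 and 4.10% in WT day 0. Its shares overlapped between the genotypes at day 7 and not at day 14. Shares within a library do not depend on the scaling of library size, and as they sum to 100 a fall of 1 shows unequal change and not which gene moved. No test was run on them. Among the N-proteinases, Adamts2 held 93.3 ± 0.244% in WT day 0, 86.1 ± 1.35% in WT day 7 and 90.2 ± 1.92% in WT day 14. Adamts14 held 4.40 ± 0.464% in WT day 0, 10.9 ± 1.2% in WT day 7 and 7.20 ± 1.55% in WT day 14.

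**Figure D3:**
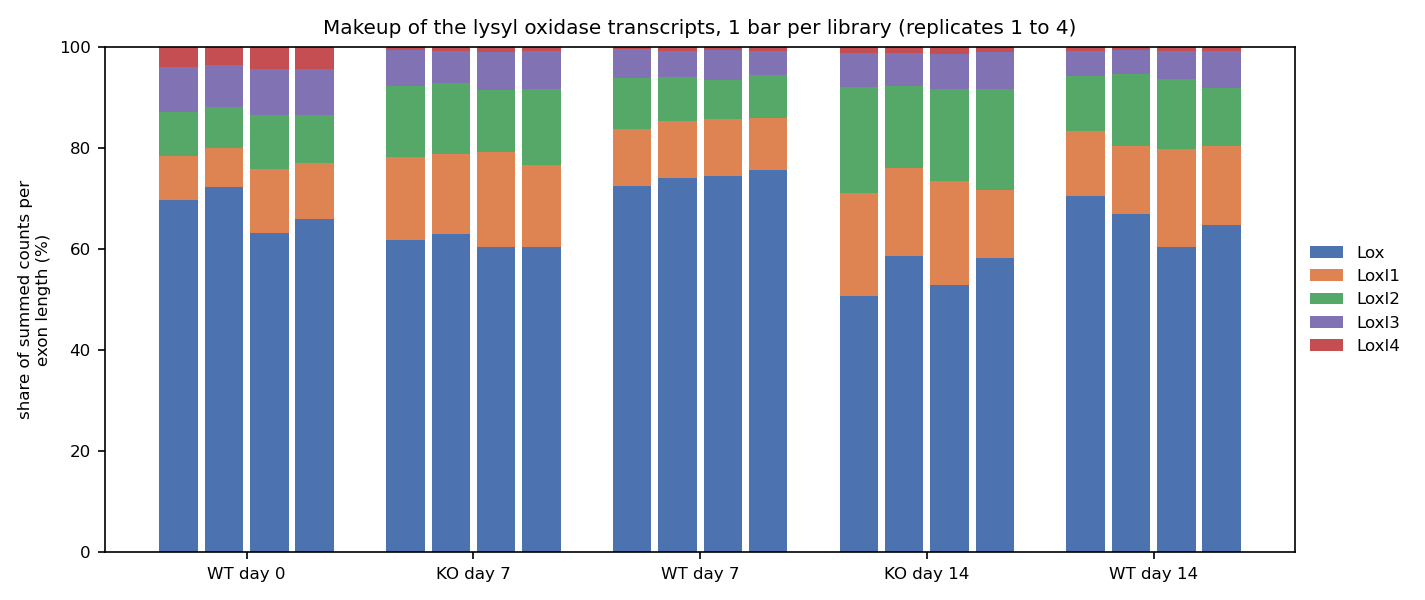
Share of each lysyl oxidase in the summed counts per exon length of the 5 genes (%, from 0 to 100), 1 bar per library in the order of replicate numbers. Lox makes up 60.4 to 63.0% in KO day 7 and 72.5 to 75.8% in WT day 7, and the Loxl4 band is widest in WT day 0 (4.10% on average).

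Ratios to the procollagen RNA of the same library were taken for 6 of the 10 genes, Lox, Loxl1, Loxl2, Bmp1, Pcolce and Adamts2. In WT, the ratios of Adamts2, Pcolce and Bmp1 were lower at both later days than at day 0, and those of Lox, Loxl1 and Loxl2 overlapped with day 0 at day 7. For each 1000 counts of Col1a1, Col1a2 and Col3a1 together, Adamts2 had 14.7 ± 1.58 counts in WT day 0, 5.48 ± 0.57 in WT day 7 and 5.49 ± 0.595 in WT day 14 (SD, n = 4). Pcolce had 27.7 ± 1.63 in WT day 0, 15.1 ± 0.685 in WT day 7 and 13.1 ± 3.17 in WT day 14. Bmp1 had 10.4 ± 0.827 in WT day 0, 6.08 ± 0.493 in WT day 7 and 5.46 ± 1.07 in WT day 14. None of these 3 genes overlapped between day 7 or day 14 and day 0. Lox had 36.4 ± 5.85 in WT day 0, 36.7 ± 5.55 in WT day 7, where the groups overlapped, and 18.5 ± 6.43 in WT day 14. The log2 differences of WT day 7 from WT day 0 were 0.013 for Lox, 0.031 for Loxl1 and -0.19 for Loxl2. At day 14, Lox and Loxl2 lay below day 0 without overlap (-1.03 and -0.54), and Loxl1 overlapped (-0.37).

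Between genotypes at day 7, the log2 ratio to procollagen was lower in KO for all 6 genes taken. Lox had 15.6 ± 2.63 per 1000 in KO day 7 and 36.7 ± 5.55 in WT day 7, a log2 difference of -1.24 (pooled SD 0.236), and Pcolce and Bmp1 differed by -0.46 and -0.32, each without overlap. Loxl1, Loxl2 and Adamts2 differed by -0.35, -0.31 and -0.17 with overlapping groups. At day 14 Lox had 10.45 ± 1.76 in KO and 18.5 ± 6.43 in WT, with overlap, and the other 5 differences lay between -0.34 and 0.06. These ratios are descriptions and were not tested. A ratio can be lower where the enzyme's own CPM is higher, as for Loxl2, Bmp1 and Adamts2 in KO day 7.

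**Figure D4:**
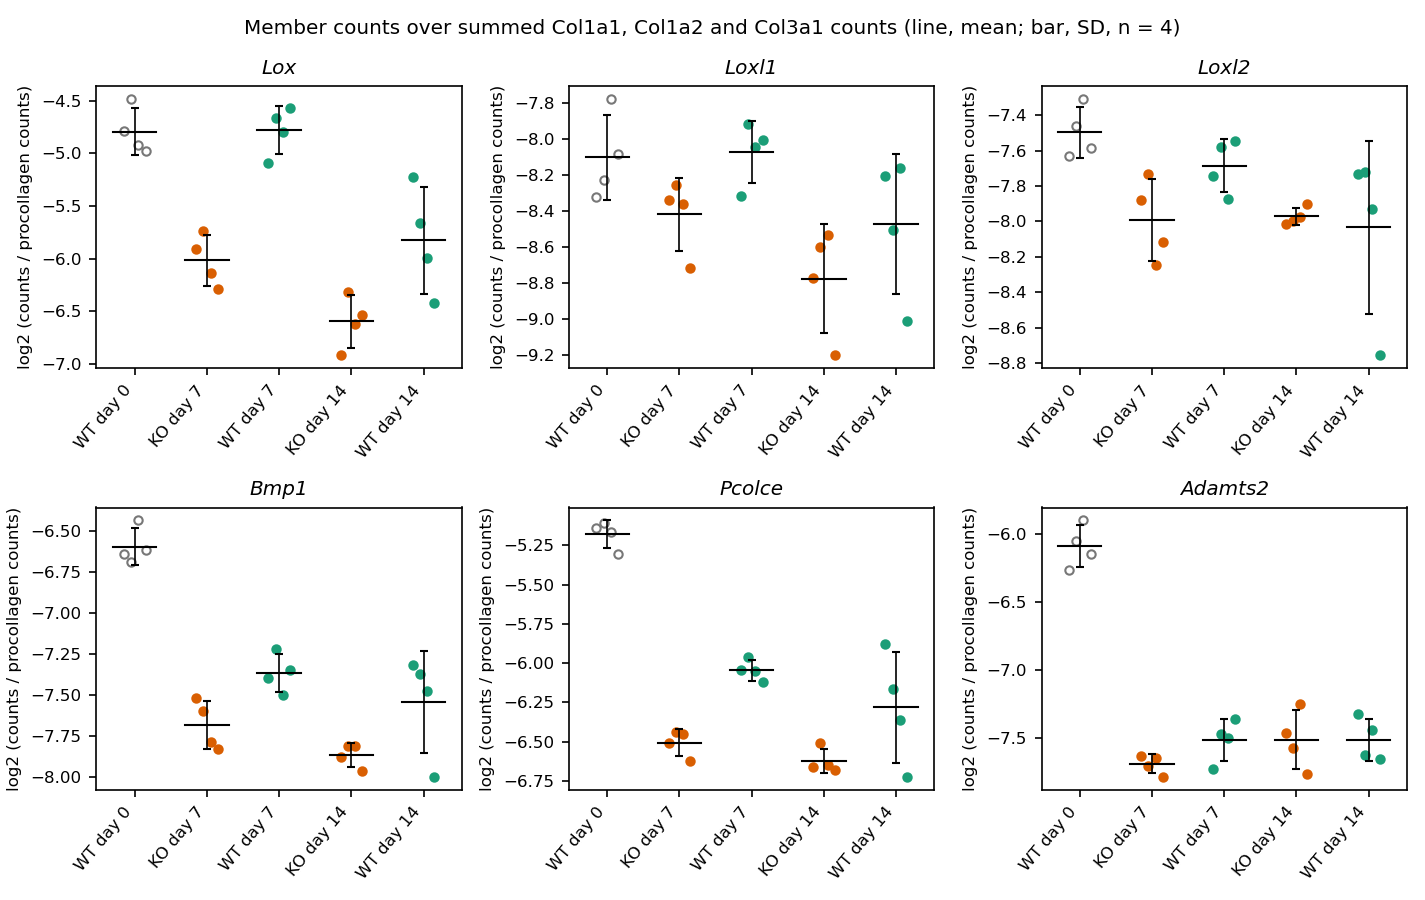
Log2 of each gene's counts over the summed counts of Col1a1, Col1a2 and Col3a1 of the same library, 1 point per library, with the mean and SD of 4 libraries per group. Lox lies between -6.29 and -5.74 in KO day 7, below WT day 7, and Adamts2, Pcolce and Bmp1 are highest in WT day 0.

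Across the 20 libraries, the genes did not vary as 1 block. By Pearson's r of log2 CPM, which over these libraries mostly reflects the 5 groups, Bmp1 went with Loxl2 (0.965), Pcolce (0.963) and Loxl1 (0.939), and Adamts14 with Loxl1 (0.958). Lox was further from them, with 0.499 to Bmp1, 0.528 to Pcolce, 0.577 to Loxl2, 0.663 to Loxl1 and 0.678 to Adamts14. Its lowest value among the genes other than Loxl4 was 0.0278, to Adamts2. Loxl4 ran against all of the other 9, from -0.706 with Adamts14 to -0.121 with Adamts2. These values are descriptions, as libraries of 1 group share their condition.

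Beyond the 10 genes, the 3 most alike by the same measure over the 20 libraries were Tpm3, a tropomyosin gene (0.956), Tmem173 (0.951) and Ctsh, a lysosomal protease gene (0.944), for Lox. For Loxl1 they were Eln, the elastin gene (0.978), Tbc1d20 (0.975) and Lgi3 (0.975). For Loxl2 they were Sh3pxd2b (0.975), Ssh1 (0.973) and Col5a2 (0.969), and for Loxl3 Rrbp1 (0.942), Hps1 (0.932) and Rcc2 (0.93). Loxl4 was most like Plpp3 (0.938), Timd4 (0.929) and Scg3 (0.927).

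Bmp1 was most like Tmem119 (0.986), Sulf2, a heparan sulfatase gene (0.983), and Fn1 (0.975), and Pcolce like Bgn, the proteoglycan biglycan (0.974), Slc37a3 (0.971) and Tmem119 (0.968). Adamts14 was most like Fbn1, encoding the microfibril protein fibrillin-1 (0.98), Zdhhc9 (0.97) and Nckap5l (0.97), and Adamts2 like Fndc1 (0.942), Ltbp3, a latent TGF-beta binding protein gene (0.934), and Clip3 (0.926). The scarce Adamts3 had the lowest values, with Fndc3b (0.862), Enpp1 (0.841) and the lysyl hydroxylase gene Plod2 (0.84).

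The authors' deposited table, which holds 13266 genes, includes all 10. At a false discovery rate below 0.05 the authors' deposited table has 9 of the 10 in WT day 7 (72.7% of its genes) and 10 in WT day 14 (63.5%) against WT day 0. Between KO and WT, the authors' deposited table has 5 of the 10 at day 7 (21.7% of its genes) and 1, Loxl2, at day 14 (2.31%). The 5 at day 7 in the authors' deposited table are Lox, Loxl2, Bmp1, Adamts2 and Adamts14, the genes named above.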

How the data were processed

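The authors deposited raw counts per gene, whole numbers for 24885 genes in 20 libraries, with no gene below a total of 21. The submitters' processing notes name FastQC, STAR and mm10. Versions, the counting tool, its annotation and strand setting: not given in the sources used here. The authors also deposited a table of edgeR log2 fold changes, p-values and false discovery rates over 13266 genes, per the file headers, and it entered no test here. Its log2 average expression was not used.

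The test was that of edgeR 4.0.16 in R 4.3.3 (filterByExpr defaults, TMM scaling, robust quasi-likelihood F test with 1 mean per group over all 20 libraries). P-values were Benjamini-Hochberg adjusted over 18918 genes, with a threshold of 0.05. The fits were tested on simulated data. Standard errors and 95% intervals come from the F statistic. RPKM used exon lengths of GENCODE vM21 (GRCm38, the mm10 build), as did coordinates. Log2 CPM used a prior count of 2. Groups and replicate numbers came from the titles. No 2 libraries of a group agreed within sampling noise (chi-square over its degrees of freedom at least 15.5).

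The members and lists were chosen with earlier results of these data known. Up to 3 members of each list with the smallest p past the threshold were named per comparison, or 2 where none passed, with Col1a1, Col1a2 and Col3a1 always. Where only a few changed, the rest were named after their values were seen. The alternatives tried were DESeq2 1.42.0, limma-voom (limma 3.58.1), RLE or upper-quartile scaling, a filter of 1 CPM in 4 or more libraries or none, fits to the compared groups alone, with the replicate block or with a muscle score, and leaving out each library. Lox shares by counts and leave-one-out levels were added after seeing the data.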

Additional observations from a re-analysis of the deposited data

Results flagged for a closer look

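In WT day 14, Loxl4 replicate 4 had 18.2 CPM, while the other 3 libraries lay between 19.8 and 20.1 CPM. The gap is 0.877 of the group's range, above the critical value of Dixon's test for 4 libraries. It is the 1 such case among 50 sets of a gene and a group, where chance gives about 1 in 20, and it is small beside the distance to the 53.1 to 60.9 CPM of WT day 0.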

How the results depend on the processing

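Calls that passed under every alternative were as follows. Between KO and WT they were Bmp1 at day 7, and Loxl2, Bmp1, Adamts2 and Adamts14 for the mean of both days. Against WT day 0 they were Lox, Loxl1, Loxl2, Loxl4 and Adamts14 in both later WT groups, and Bmp1, Pcolce, Adamts2 and Adamts3 in WT day 14. For WT day 14 against WT day 7 they were Bmp1, Pcolce and Adamts2. For KO against WT day 0 they were all 10 genes at day 14, and all calls at day 7 but that of Adamts2. RLE scaling and the stricter filter changed no call of the 10 genes. Scaling moved the median of all genes by at most 0.0316 on the log2 scale. With the muscle score, the genes that passed numbered 5 of 10 and 5861 in all for WT day 7 against WT day 0, 1 of 10 and 934 for KO day 7 against WT day 7, 2943 for WT day 14 against WT day 7, and 1990 for the mean of KO against WT. Upper-quartile scaling left 3 of 10 for KO day 7 against WT day 7. The compared groups alone left 0 of 10 and 86 genes for KO day 14 against WT day 14, where DESeq2 gave 759, and DESeq2 gave 190 for the interaction. Without a filter, 1 of 10 passed for KO day 14 against KO day 7. The causes were not tested.

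Leaving out 1 library gave 1 to 4 of 10 and 1440 to 2659 genes for KO day 7 against WT day 7, 0 to 3 and 152 to 1672 for KO day 14 against WT day 14, 0 to 1 and 1693 to 2956 for KO day 14 against KO day 7, and 0 to 11 genes for the interaction. The 1440 was without WT day 7 replicate 2, the 152 without WT day 14 replicate 1, the 1672 without WT day 14 replicate 4 and the 1693 without KO day 14 replicate 1. Where a fit lost a library, 3 remained in its group.

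Sign changes, none of them in a call, were as follows, with the range over the fits that leave out 1 library. Adamts2, WT day 7 against WT day 0, was 0.017 with upper-quartile scaling, 0.0018 without a filter and -0.106 to 0.0868 with a library left out. WT day 14 against WT day 7 with the muscle score was 0.0045 for Loxl4 and 0.073 for Adamts14, whose range was -0.214 to 0.0635. KO day 7 against WT day 7 was 0.0037 for Adamts3 with limma-voom, 0.051 with the muscle score and -0.106 to 0.160, and for Loxl4 0.14 with the muscle score and -0.297 to 0.122. KO day 14 against WT day 14 was -0.0083 for Adamts3 with limma-voom and -0.0784 to 0.162. The mean of KO against WT was 0.0019 for Adamts3 without a filter, 0.038 with the muscle score and -0.0525 to 0.0920. KO day 14 against KO day 7 was -0.0470 to 0.150 for Loxl1. The interaction was -0.012 for Adamts3 with limma-voom, -0.026 with the muscle score and -0.136 to 0.188, for Adamts14 -0.267 to 0.0078 and for Adamts2 -0.161 to 0.0845.

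Replicate numbers showed little pairing of the libraries, and the check cannot exclude it. Deviations of same-numbered libraries correlated at 0.0565 on average (lowest -0.165), and those of different numbers at -0.019. Of the 20 libraries, 7 correlated best with their own number. With the replicate block, 8 of 10 genes passed for WT day 7 against WT day 0 (Adamts3 missed it, adjusted p = 0.0562) and Loxl1 passed for the mean of KO against WT (adjusted p = 0.0439). With Col1a1 alone as the divisor, 7 of 30 log2 ratio differences moved by more than 1 SD, none of these to the other sign, and 2 that moved less did change sign (Loxl2 in KO day 14 against WT day 14 to -0.083, Adamts2 in WT day 14 against WT day 7 to -0.082). The 6 between KO day 7 and WT day 7 became more negative (Lox to -1.57), and that of Pcolce between WT day 7 and WT day 0 less so (-0.76). By counts, the Lox share was 63.8% in KO day 7 and 76.1% in WT day 7. Adamts3 had the lowest levels of the 10 genes, at 4.40 to 12.3 CPM, or 183 to 658 counts per library.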
